A study of Mus musculus with 24 samples.

Results

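The genes described are the metallothioneins Mt1 and Mt2, the transcription factor gene Mtf1, the exporter genes Slc30a1 and Slc30a10, and the importer genes Slc39a4, Slc39a8 and Slc39a14. They were found by symbol, and all 8 were present among the 48820 entries of each of the 4 gene count tables. The set was chosen by a value measured in these libraries, the fall of Mt1 in endothelial cells (ECs) of the mutant liver, so the EC values are given as a description without a test. The macrophage and whole-liver comparisons were not used to choose the set.

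RNA-seq was done on 24 mouse liver libraries in 8 groups of 3, all from strain C57BL/6 by the labels (C57BL/6J in the study's methods). Sorted liver macrophages (CD45+ Ly6C- F4/80+ CD64+) and sorted ECs (CD45- CD31+) came from control mice, whose alleles the labels do not spell out, and from mice labelled Bmp9/10-HSC-KO at 8 to 10 weeks of age, and whole livers of the same 2 genotypes were taken at 12 weeks. In the mutant (Lrat Cre with floxed alleles of both Gdf2 and Bmp10) the circulating ligands GDF2 (BMP9) and BMP10 were deleted in hepatic stellate cells (HSCs), where Lrat drives the recombinase, so neither the sorted macrophages nor the sorted ECs were themselves the target of the deletion. A separate experiment compared macrophages of Smad4 fl/fl mice (labelled Smad4FF) with those of mice that also carried Vav1 Cre (labelled Smad4FF cKO), also at 8 to 10 weeks, in which the shared signal transducer of the BMP and TGF-β pathways was deleted in hematopoietic cells. The labels give 3 mice that supplied both a macrophage and an EC library, 1 control and 2 mutants, so the macrophage and EC comparisons shared animals. Beyond that, nothing says that the 3 libraries of a group came from separate litters, and p-values measure the spread between these libraries only.

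Metallothioneins are small cysteine-rich proteins that bind zinc, copper and cadmium and buffer the free zinc of the cell. Free zinc is sensed by MTF-1, the product of Mtf1, which binds short metal response elements in promoters and turns on Mt1, Mt2 and the zinc exporter gene Slc30a1. Transporters of the SLC30 (ZnT) family move metal out of the cytosol, and those of the SLC39 (ZIP) family bring metal in. In liver, SLC39A14 is known as an importer of zinc, manganese and non-transferrin-bound iron in hepatocytes, SLC39A8 as an importer of manganese and zinc, SLC30A10 as the manganese exporter, and SLC39A4 mainly as the zinc importer of the intestine.

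Promoter windows are shown for the 3 genes that were low in mutant ECs (Mt1, Mt2 and Slc39a8) and for Slc30a1, the other textbook MTF-1 target of the set. Each window runs from 250 bases before to 50 after a RefSeq transcript start on GRCm38.p6, and capitals mark matches of the metal response element core, TGCACNC or TGCGCNC, on either strand. A match in reverse reads GNGTGCA or GNGCGCA.
Mt1, chr8:94178839-94179138, plus strand: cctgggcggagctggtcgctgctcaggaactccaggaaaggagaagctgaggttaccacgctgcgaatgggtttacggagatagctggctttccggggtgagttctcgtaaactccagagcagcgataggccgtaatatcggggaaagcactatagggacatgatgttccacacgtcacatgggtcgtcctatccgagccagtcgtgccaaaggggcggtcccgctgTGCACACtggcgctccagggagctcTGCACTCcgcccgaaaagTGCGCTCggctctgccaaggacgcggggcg
Mt2, chr8:94172368-94172667, plus strand: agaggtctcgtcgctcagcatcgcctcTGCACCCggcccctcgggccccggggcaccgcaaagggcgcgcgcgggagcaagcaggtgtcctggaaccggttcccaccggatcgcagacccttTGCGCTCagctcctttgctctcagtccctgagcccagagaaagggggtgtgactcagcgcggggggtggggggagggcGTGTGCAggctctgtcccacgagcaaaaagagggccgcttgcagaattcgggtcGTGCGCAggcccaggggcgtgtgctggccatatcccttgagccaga
Slc39a8, chr3:135825029-135825328, plus strand: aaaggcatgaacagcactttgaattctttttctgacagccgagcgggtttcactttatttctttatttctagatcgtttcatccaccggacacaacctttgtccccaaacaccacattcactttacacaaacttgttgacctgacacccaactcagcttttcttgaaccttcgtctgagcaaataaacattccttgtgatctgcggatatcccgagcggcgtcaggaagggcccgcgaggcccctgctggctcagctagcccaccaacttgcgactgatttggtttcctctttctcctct
Slc30a1, chr1:191906531-191906830, plus strand: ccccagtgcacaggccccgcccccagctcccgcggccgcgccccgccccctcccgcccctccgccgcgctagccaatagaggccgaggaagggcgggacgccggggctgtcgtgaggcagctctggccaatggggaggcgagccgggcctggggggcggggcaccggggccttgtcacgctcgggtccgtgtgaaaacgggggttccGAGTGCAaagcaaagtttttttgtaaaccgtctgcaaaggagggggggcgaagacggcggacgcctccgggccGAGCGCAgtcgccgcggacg
The Mt1 window held 3 matches, the Mt2 window 4 and the Slc30a1 window 2, whereas the first Slc39a8 window held 0 and a second Slc39a8 window, at chr3:135825407-135825706, held 1. The Slc30a10 window held 3, of which 1 pair overlapped on opposite strands, and the Mtf1 window held 0. Of 32851 mouse promoter windows of the same length, 25.7% held at least 1 match, 7.11% at least 2, 1.97% at least 3 and 0.517% at least 4. Mt1 and Mt2 had match counts that few windows reach, and Slc39a8 did not. A match is a description of letters and not a bound site, and 6 of the 8 genes had a window in the RefSeq table.

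Mt2 and Mt1 lie next to each other on the plus strand of chromosome 8 (GRCm38, GENCODE annotation), Mt2 at chr8:94172664-94173568 and Mt1 at chr8:94179082-94180327, with 5513 bases between them. An annotated antisense gene, Gm45774, overlaps exons of Mt2, and exons of Mtf1, Slc30a1 and Slc30a10 overlap 1110065P20Rik, 1700034H15Rik and Gm2061 on the opposite strand. The latter 3 were at 0.81 to 12.2, 0 to 0.81 and 0 to 3.15 CPM (counts scaled to a common library total) over the 24 libraries, and whether the counting used strand is not given in the sources used here. The other genes lie at chr4:124802104-124849800 (Mtf1, plus strand), chr1:191906767-191913247 (Slc30a1, plus), chr1:185454848-185468762 (Slc30a10, plus), chr15:76612383-76617384 (Slc39a4, minus), chr3:135825279-135888572 (Slc39a8, plus) and chr14:70303469-70351425 (Slc39a14, minus).

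The libraries held 60911527 to 110879155 counts, so that 3 counts, taken as the floor, correspond to 0.026 to 0.052 CPM. Levels are CPM scaled by the trimmed mean of M values (TMM) within each table, and levels from different tables are set side by side without a test. The targeted genes followed the labels. In whole liver, Gdf2 was at 9.38 to 22.5 CPM in controls and 2.12 to 3.84 in mutants, Bmp10 at 1.99 to 3.28 and 0.094 to 0.26, and macrophage Smad4 was at 35.2 to 42.8 CPM in Smad4FF and 12.6 to 17.2 in Smad4FF cKO. Macrophage markers summed to 19072 to 31401 CPM in the 12 macrophage libraries and endothelial markers to 14375 to 18637 in the 6 EC libraries. Markers that define Kupffer cells (KCs: Clec4f, Vsig4, Timd4, Cd5l and Marco) summed to 23381 CPM or more in both macrophage control groups but only 40.5 to 220.0 in the ligand mutant and 670.2 to 782.4 in Smad4FF cKO, so the mutant libraries are macrophages that largely lack the Kupffer signature. All libraries are bulk RNA, in which fewer cells of a type and less RNA per cell cannot be told apart.

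In control tissue the 8 genes divided between cell types. Compared per length of exon, in RPKM (CPM per kilobase of exon), control ECs had Mt1 at 177.4 ± 25.4 (SD, n = 3), Mt2 at 46.4 ± 7.6, Slc39a8 at 25.1 ± 2.1 and Slc30a1 at 10.2 ± 0.26, with Mtf1 at 2.21 ± 0.22. Control macrophages of the ligand experiment had Mt1 at 54.0 ± 12.4, Slc30a1 at 11.8 ± 1.1 and Mtf1 at 1.77 ± 0.36, with Mt2 at 1.17 ± 0.97 and Slc39a8 at 0.75 ± 0.19. Smad4FF macrophages, the controls of the other experiment, had Mt1 at 98.4 ± 11.3, Mt2 at 9.41 ± 5.11 and Slc30a1 at 5.01 ± 1.43. Control levels of these genes thus differed between the macrophage experiments. Both sorted cell types therefore carried Mt1 as the most abundant of the 8, and Slc39a8 was abundant in ECs but not in macrophages. Control whole liver had Mt2 at 43.0 ± 43.5 and Mt1 at 35.9 ± 20.6, which did not differ beyond their spread, followed by Slc39a14 at 23.9 ± 4.6, Slc39a4 at 19.0 ± 2.2, Slc30a10 at 11.8 ± 0.36, Slc30a1 at 5.69 ± 1.23, Slc39a8 at 4.30 ± 0.43 and Mtf1 at 2.10 ± 0.28. Slc39a14, Slc39a4 and Slc30a10 were thus genes of the whole liver, and each was at or below 0.31 RPKM on average in control macrophages and ECs. The lengths of Slc39a8 and Slc39a14 depend most on the transcript chosen: with the longest transcript in place of the exon union, liver Slc39a14 became 49.2 and liver Slc39a8 7.82 RPKM. The exon union of Mt1 covers its whole locus, so its RPKM against that of Mt2 also depends on the annotation.

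**Figure D1:**
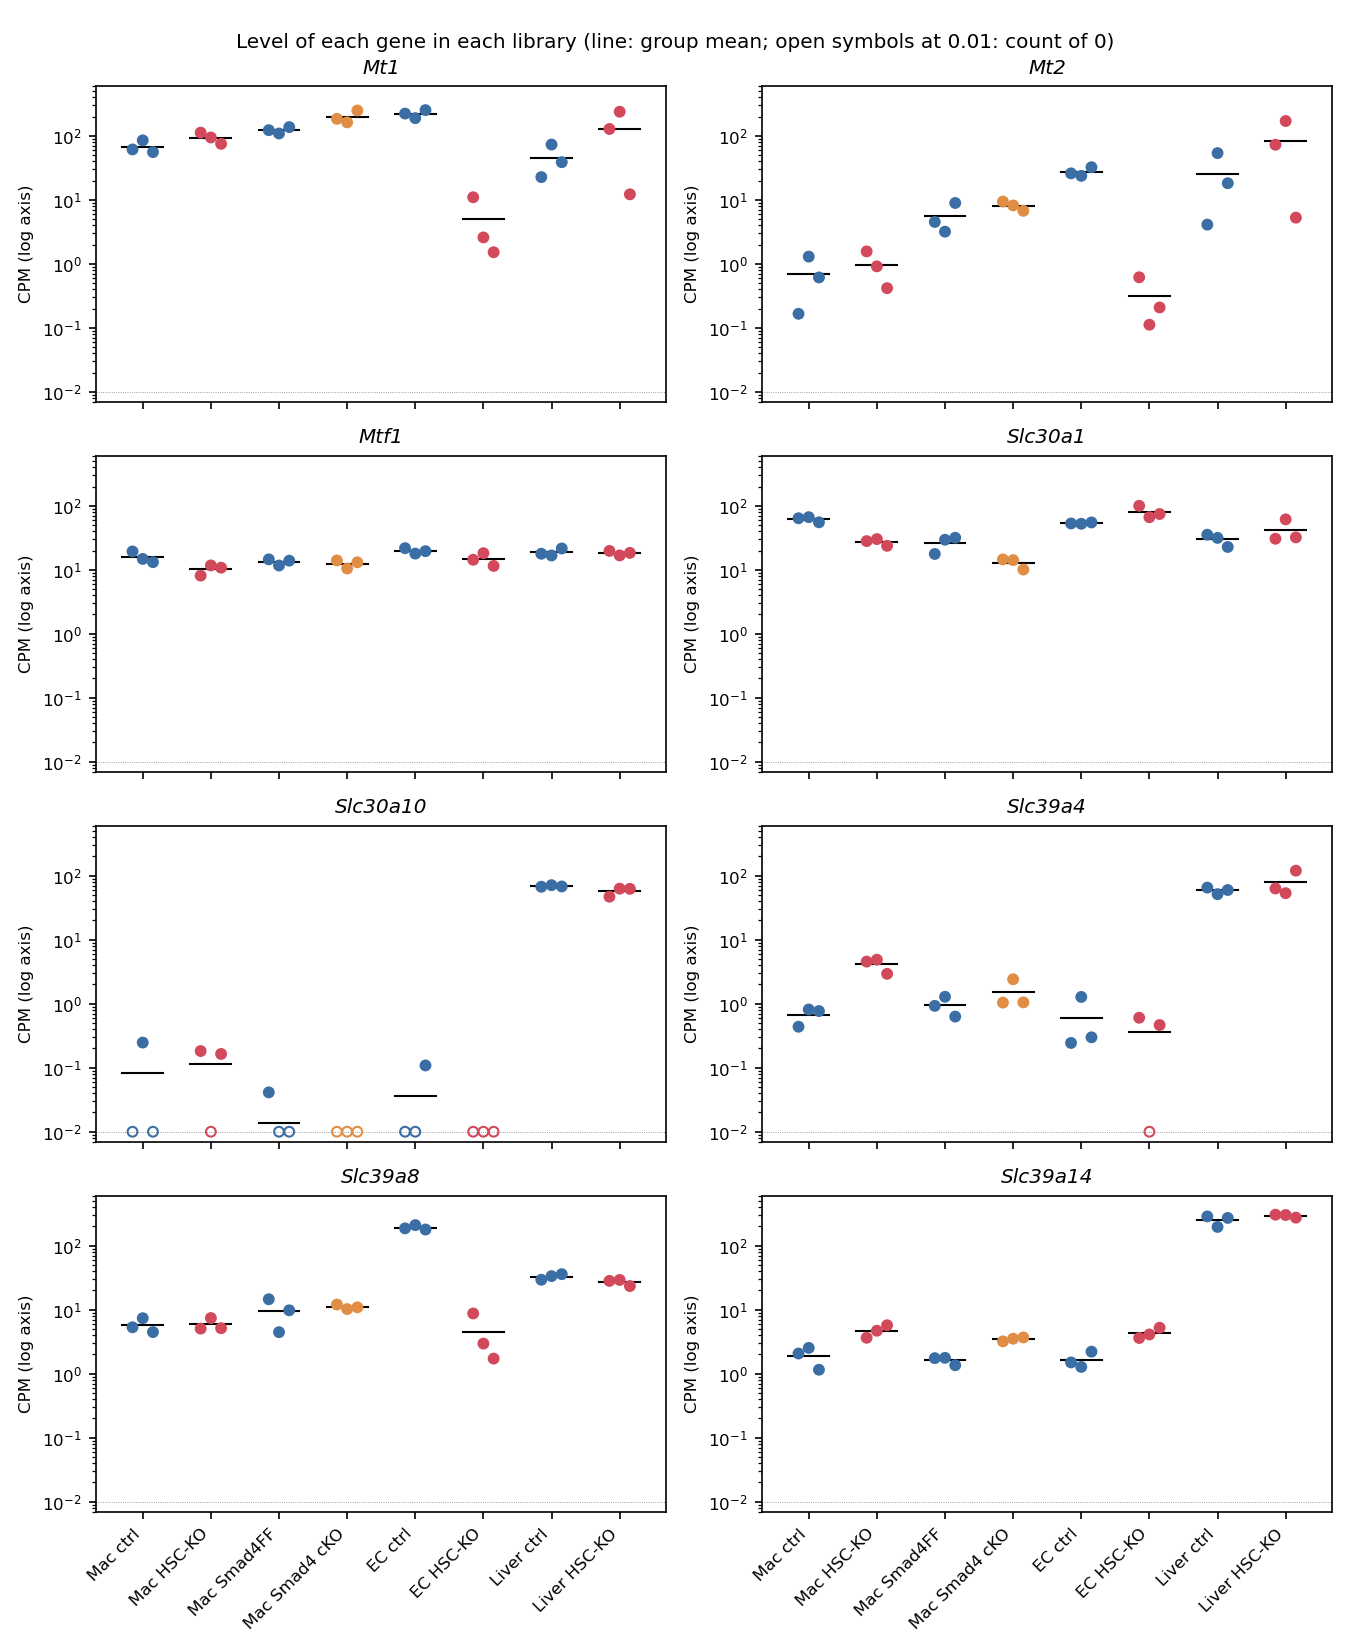
CPM of each gene in each of the 24 libraries (log axis), with a line at each group mean and open symbols at 0.01 for a count of 0. Mt1, Mt2 and Slc39a8 sit far lower in the 3 HSC-KO EC libraries than in the 3 EC controls, Slc30a1 is lower in both mutant macrophage groups and higher in HSC-KO ECs, and Slc30a10 is near 0 outside whole liver.

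In ECs, both metallothioneins and one importer were nearly lost when HSCs lacked GDF2 and BMP10. The study reports that ECs of this mutant were lower in sinusoidal markers such as Stab2 and higher in continuous-EC markers such as Cd34. Such markers were not examined here. Mt1 was at 223, 189 and 252 CPM in the controls and at 10.96, 2.58 and 1.52 CPM in the mutants. Mt2 was at 25.9, 23.7 and 32.3 CPM in the controls and at 0.62, 0.11 and 0.21 CPM in the mutants, or 8 to 58 counts per library. Neither gene overlapped between the groups, and mutant replicate 1 was the highest of the 3 mutants for both. The log2 fold change was -5.46 (SE 0.76) for Mt1 and -6.41 (SE 0.57) for Mt2. Slc39a8, the manganese and zinc importer, was at 187, 209.9 and 179 CPM in the controls and at 8.74, 2.96 and 1.72 CPM in the mutants, a log2 fold change of -5.42 (SE 0.61). It too did not overlap, and again mutant replicate 1 was highest. Without that library the log2 fold changes were -6.76 for Mt1, -7.39 for Mt2 and -6.36 for Slc39a8, so the size of the fall, though not its direction, rested in part on this mouse. Xist, the RNA of the inactive X chromosome, was at 21.5, 0 and 0 CPM in control and 25.4, 0 and 42.7 CPM in mutant ECs. Over all alternative fits, Xist as a covariate among them, Mt1 ran from -6.76 to -5.02, Mt2 from -7.39 to -6.03 and Slc39a8 from -6.36 to -5.03.

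The remaining genes of the set did not follow Mt1 down in ECs. Slc30a1, which exports zinc across the plasma membrane, was at 52.9, 52.3 and 54.9 CPM in the controls and 99.8, 66.2 and 74.3 CPM in the mutants, higher in every mutant library than in any control, with a log2 fold change of 0.59 (SE 0.17). Slc39a14 was low in both groups, at 1.501, 1.28 and 2.21 CPM in the controls and 3.62, 4.10 and 5.23 CPM in the mutants, with a log2 fold change of 1.37 (SE 0.31). Both exceeded their controls without overlap. Mtf1, the zinc sensor itself, was at 21.7, 17.9 and 19.5 CPM in the controls and 14.3, 18.2 and 11.5 CPM in the mutants, and these ranges overlapped (log2 fold change -0.43, SE 0.19). Slc39a4 was at 0.24, 1.28 and 0.30 CPM in the controls and 0.60, 0 and 0.46 CPM in the mutants, a difference smaller than its error (-0.75, SE 1.26). Slc30a10 had 8 counts in one control EC library and 0 in the other 5, and was too low to fit.

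In the macrophage and liver comparisons below, a gene is called when its adjusted p is below 0.05 and its absolute log2 fold change above 1. As background, this rule called 13.7% of all 16053 genes fitted in ECs, 7.68% up and 6.01% down, and groups did not overlap for 40.4% of them. Of the 7 genes of the set fitted in ECs, 5 had groups that did not overlap, and nothing is read from this count because Mt1 in this comparison chose the set. Markers of other cells were also summed in the EC libraries. The summed hepatocyte markers were at 78.0 to 139 CPM in control ECs and 71.2 to 93.4 in mutant ECs. At the median ratio of 12 hepatocyte markers to their level in whole liver of the same genotype, hepatocyte RNA would supply 0.046 to 0.12 CPM of Mt1, below the 1.52 CPM of the lowest mutant library. For Mt2 the supply in the 3 mutant libraries would be 0.039, 0.053 and 0.078 CPM of the 0.62, 0.11 and 0.21 CPM measured, a larger share. Macrophage markers fell from 55.9 to 70.2 CPM in the controls to 20.1 to 30.3 in the mutants, and Kupffer markers from 22.02 to 23.5 to at most 0.15. Stellate markers summed to 25.3 to 112 CPM in control ECs and 30.1 to 44.8 in mutant ECs, against 269 to 381 in control livers. The part of these cells in the EC result was not tested.

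**Figure D2:**
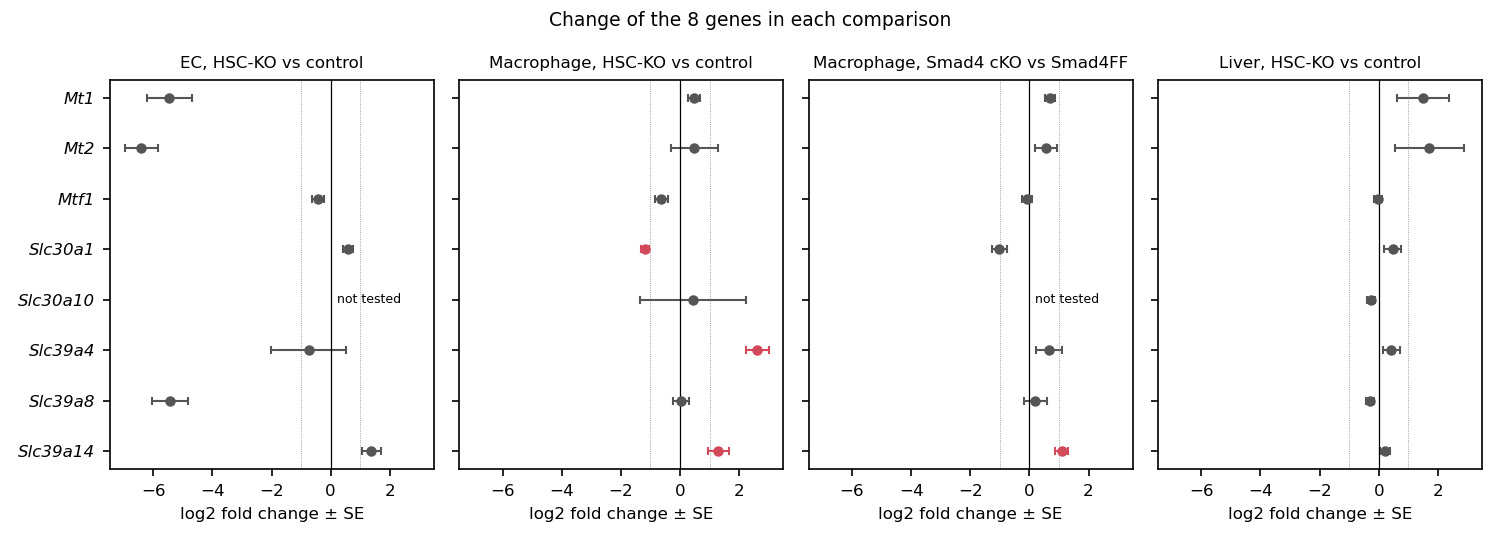
Log2 fold change with its standard error for each gene in the 4 comparisons, from 6 libraries each. Dotted lines mark -1 and 1, and red marks genes past the call rule in the 3 comparisons not used to choose the set. Mt1 and Mt2 fell in ECs, while in macrophages and in whole liver, of which ECs are a small part, both estimates lie above 0.

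Macrophages of the same mutant genotype did not show the fall. Mt1 was at 61.2, 84.8 and 55.7 CPM in control macrophages, and the mutants gave 112, 94.2 and 75.0 CPM. The ranges overlapped, the mutants tending higher. The log2 fold change was 0.48 (SE 0.20) with an adjusted p of 0.15 by edgeR's quasi-likelihood test with Benjamini-Hochberg adjustment, which also gave every adjusted p below unless another tool is named. Mt2 was at 0.17, 1.29 and 0.61 CPM in the controls and at 1.56, 0.91 and 0.42 CPM in the mutants, within its spread (0.48, SE 0.79, adjusted p = 0.72). Mtf1 was at 19.3, 14.8 and 13.2 CPM in the controls and 8.10, 11.7 and 10.8 CPM in the mutants. Its groups did not overlap, yet the change missed the threshold (-0.63, SE 0.21, adjusted p = 0.081). Whether the change of Mt1 differed between ECs and macrophages was not tested, since the 2 tables were normalised apart and Mt1 in ECs chose the set.

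In ligand-mutant macrophages 3 of the 8 genes were called, Slc30a1 lower and Slc39a4 and Slc39a14 higher, beside 11.7% of all genes. Slc30a1 fell from 63.8, 66.3 and 55.2 CPM in the controls to 28.04, 30.2 and 23.7 CPM in the mutants, a log2 fold change of -1.18 (SE 0.14, adjusted p = 0.0012). The groups lay far apart, and the call held in all 14 alternative fits. Slc39a4 rose from 0.44, 0.81 and 0.77 CPM to 4.56, 4.87 and 2.93 CPM, a log2 fold change of 2.62 (SE 0.38, adjusted p = 0.0031), and it too was called in all 14. Even in the mutants its level stayed low, at 1.33 RPKM against 19.0 in control whole liver. Hepatocyte RNA at the level of the hepatocyte markers would supply 0.15 to 0.23 CPM of Slc39a4 in the mutants and 0.21 to 0.68 CPM in the controls, so the mutant level was far above it, while the controls lay closer to it. Summed lymphoid markers were also higher in the mutants, at 36.5 to 118 CPM against 10.6 to 22.5 in the controls, with 3 of the 6 markers called (Ncr1, Nkg7 and Cd3g), and their part in these values was not tested.

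Slc39a14 rose from 2.07, 2.53 and 1.15 CPM to 3.65, 4.70 and 5.72 CPM in mutant macrophages, with no overlap between groups. The log2 fold change was 1.29 (SE 0.35, adjusted p = 0.041), but the adjusted p was 0.054 to 0.13 in each of the 6 fits that left out one library, and 0.0064 to 0.13 over all 14 alternatives, 9 of which lost the call. Hepatocyte RNA would supply 0.90, 2.52 and 2.93 CPM of this gene in the 3 controls, below, level with and above what was measured, and 0.57 to 0.86 CPM in the mutants. Its part in the result was not tested further. Slc39a8 was at 5.32, 7.37 and 4.47 CPM in the controls and 5.07, 7.41 and 5.15 CPM in the mutants, with a log2 fold change of 0.04 (SE 0.27, adjusted p = 0.94). At the median ratio of 12 endothelial markers to ECs of the same genotype, EC RNA would supply 0.25, 3.07 and 2.03 CPM of Slc39a8 in the controls and at most 0.014 CPM in the mutants. Endothelial markers summed to 352 to 579 CPM in the controls and 58.7 to 129.6 in the mutants. One of them, Cdh5, is a KC identity gene in the study and fell at -7.40 (SE 0.55) in these macrophages, so the sum is not carry-over alone. The median ratio was 0.13 to 1.60% in the controls and 0.055 to 0.32% in the mutants, ranges that overlap. The part of EC RNA in the estimate was not tested. Slc30a10 had 0, 21 and 0 counts in the controls and 16, 0 and 15 in the mutants, and gave no usable estimate. In all, 2 of the 8 genes rose and 1 fell, against 11.7% of all 16337 genes fitted (6.32% up, 5.34% down). Groups did not overlap for 4 of the 8, against 40.3% of all genes, so separation without overlap was common in this comparison.

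With loss of Smad4 in the hematopoietic lineage, Slc39a14 was again higher in macrophages and Slc30a1 again lower, of which Slc39a14 passed the call rule. Slc30a1 was at 17.7, 29.5 and 31.7 CPM in Smad4FF and at 14.5, 14.1 and 10.1 CPM in Smad4FF cKO. Its Smad4FF mean of 26.3 CPM lay near the 27.3 CPM of ligand-mutant macrophages, in tables normalised apart. The groups did not overlap, but the log2 fold change of -1.02 (SE 0.25) had an adjusted p of 0.054. DESeq2 called it with an adjusted p of 0.0027, and without Smad4FF replicate 1, the lowest control, edgeR gave -1.26 with an adjusted p of 0.022. Over its 13 alternatives the adjusted p ran from 0.0027 to 0.19, and 4 made the call. Slc39a14 rose from 1.75, 1.77 and 1.36 CPM to 3.20, 3.52 and 3.69 CPM, a log2 fold change of 1.09 (SE 0.23, adjusted p = 0.027). This call was lost in each of the 6 fits without one library, with adjusted p from 0.051 to 0.13, and in 8 of its 13 alternatives, over which it ran from 0.00025 to 0.13. At the ratio of hepatocyte markers to control livers of the ligand experiment, since no liver of the Smad4 mice was analysed here, hepatocyte RNA would supply 1.02 to 1.67 CPM of Slc39a14 in Smad4FF and 0.56 to 1.71 CPM in Smad4FF cKO, so the control level again lay near it.

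Mt1 was higher in every Smad4FF cKO library, at 184, 162 and 249 CPM, than in any Smad4FF library, at 122, 109 and 137 CPM, but the log2 fold change of 0.69 (SE 0.18) had an adjusted p of 0.064. Mt2 was at 4.50, 3.18 and 8.91 CPM in Smad4FF and at 9.39, 8.17 and 6.72 CPM in Smad4FF cKO (0.55, SE 0.37, adjusted p = 0.47). Neither metallothionein was lower in either mutant macrophage group on average. Mtf1 was at 14.6, 11.7 and 13.9 CPM in Smad4FF and 14.0, 10.5 and 13.1 CPM in Smad4FF cKO (-0.10, SE 0.17, adjusted p = 0.81). Slc39a4 was at 0.93, 1.28 and 0.63 CPM and then 1.04, 2.41 and 1.05 CPM (0.67, SE 0.45, adjusted p = 0.47). Slc30a10 had 4 counts in one Smad4FF library and 0 in the other 5, and was not fitted. Of the 7 genes fitted, 1 was called, against 5.43% of all 17517, and 3 had groups that did not overlap, against 29.4%.

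Slc39a8 in the Smad4 experiment was at 14.6, 4.46 and 9.79 CPM in Smad4FF and at 12.04, 10.2 and 10.9 CPM in Smad4FF cKO, with no difference beyond the spread (0.20, SE 0.38, adjusted p = 0.82). Endothelial markers summed to 751 to 2314 CPM in these 6 libraries. At the median ratio of 12 endothelial markers to control ECs of the ligand experiment, EC RNA would supply 4.44 to 17.3 CPM of Slc39a8 in Smad4FF and 13.4 to 17.0 CPM in Smad4FF cKO. That is above the measured level in 5 of the 6 libraries and level with it in Smad4FF replicate 2, at 4.44 against 4.46 CPM. Smad4FF replicate 2, the lowest in Slc39a8, was also the lowest in endothelial markers. The same ratio gives 5.11 to 19.9 CPM of Mt1 in Smad4FF and 15.4 to 19.6 CPM in Smad4FF cKO, a small part of its level. For Mt2 it gives 2.45, 0.63 and 2.40 CPM in Smad4FF and 1.90 to 2.41 CPM in Smad4FF cKO, a larger part of its level. For Slc30a1 it gives 1.23 to 4.80 CPM in Smad4FF and 3.72 to 4.73 CPM in Smad4FF cKO, where 10.1 to 14.5 CPM were measured, and its part in these differences was not tested. In the ligand experiment the ratio gives at most 3.53 CPM of Mt1 in any macrophage library.

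The 2 macrophage experiments were then compared directly, in a fit of the 12 macrophage libraries that tested whether a gene changed more with loss of the ligands than with loss of Smad4. The fitted difference for Slc39a4 was 2.00 (SE 0.61), with an adjusted p of 0.11. That for Slc30a10, which was at 0 in most of these libraries, was 3.91 with an SE of 3.18 (adjusted p = 0.61). The differences for Slc30a1 (-0.11, SE 0.30, adjusted p = 0.92), Slc39a14 (0.24, SE 0.42, adjusted p = 0.85), Mt1 (-0.17, SE 0.30, adjusted p = 0.85) and Mtf1 (-0.49, SE 0.28, adjusted p = 0.42) were all within 2 standard errors. Those for Mt2 (-0.03, SE 0.91) and Slc39a8 (-0.12, SE 0.50) were smaller than their errors. By edgeR's quasi-likelihood test 0 of the 8 passed the call rule, 1 had an unadjusted p below 0.05, and DESeq2 called 1, Slc39a4, with an adjusted p of 0.042, the lowest of a range up to 0.27 over its 19 alternatives. Without Smad4FF cKO replicate 2, the highest of its group, edgeR gave 2.51 for Slc39a4 with an adjusted p of 0.046. Of all 18149 genes fitted, 2.61% passed. Slc39a4 was thus called in the ligand mutant and not in Smad4FF cKO, without a difference between the experiments that passed the edgeR test on all 12 libraries.

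In whole liver neither metallothionein was lower on average in the mutants. Mt1 was at 22.6, 73.0 and 38.7 CPM in control livers and at 128, 238 and 12.2 CPM in mutant livers. Mt2 was at 4.09, 53.7 and 18.1 CPM in the controls and at 72.5, 170.1 and 5.26 CPM in the mutants. Mutant replicates 1 and 2 lay above every control for both genes, whereas mutant replicate 3 was the lowest of the 6 livers for Mt1. The log2 fold changes of 1.49 (SE 0.88, adjusted p = 0.58) for Mt1 and 1.71 (SE 1.17, adjusted p = 0.64) for Mt2 were within this spread. Mutant replicate 3 also stood apart in Xist, the RNA of the inactive X chromosome, at 0.17 CPM against 303 to 708 CPM in the other 5 livers. Without that library the Mt1 log2 fold change was 2.03 with an adjusted p of 0.081, and without mutant replicate 2, the highest liver, it was 0.65 for Mt1 (adjusted p = 0.89) and 0.62 for Mt2 (adjusted p = 0.93). Without control replicate 2, the highest control, Mt2 was 2.90 (adjusted p = 0.57). For Mt1 with Xist as a covariate the estimate was 2.14 (SE 0.38, adjusted p = 0.033), past the call rule, while over all 13 alternatives the adjusted p reached 0.89. Mt2 with Xist as a covariate had an adjusted p of 0.19. Sex and any other property of that animal cannot be told apart with a single such library.

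No transporter of the set passed the call rule in whole liver. Slc39a14, the most abundant of them, was at 287, 197 and 272 CPM in the controls and 305, 302 and 275 CPM in the mutants (0.22, SE 0.17, adjusted p = 0.68). Slc30a10 was at 67.3, 71.2 and 68.0 CPM in the controls and 47.1, 62.9 and 62.4 CPM in the mutants, lower in every mutant, but the log2 fold change of -0.26 (SE 0.14) had an adjusted p of 0.52. Slc39a8 was at 29.4, 33.5 and 36.0 CPM and then 28.2, 29.2 and 23.4 CPM, also without overlap (-0.29, SE 0.14, adjusted p = 0.44). Slc30a1 was at 35.3, 31.5 and 22.7 CPM and then 30.5, 61.3 and 32.1 CPM (0.47, SE 0.29, adjusted p = 0.61), and Mtf1 at 17.8, 16.7 and 21.5 CPM and then 19.7, 16.8 and 18.4 CPM (-0.03, SE 0.14, adjusted p = 0.96). Slc39a4 was at 65.3, 51.5 and 59.9 CPM and then 63.2, 53.4 and 120.1 CPM, the high value again in mutant replicate 3 (0.42, SE 0.29, adjusted p = 0.65). Of the 8 genes 0 were called by edgeR's quasi-likelihood test, 0 had an unadjusted p below 0.05 and DESeq2 called 0, beside 2.48% of all 17118 genes fitted. Groups did not overlap for 2 of the 8, against 19.7% of all genes. Hepatocyte markers summed to 125389 to 151630 CPM in control livers and 162175 to 213560 in mutant livers, and stellate markers to 269 to 381 and 548 to 593. Endothelial markers summed to 463 to 565 CPM in control livers and 488 to 560 in mutant livers. In control ECs they summed to 18268 to 18637 CPM, so ECs were a small part of whole-liver RNA. The part of these cells in the liver values was not tested.

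**Figure D3:**
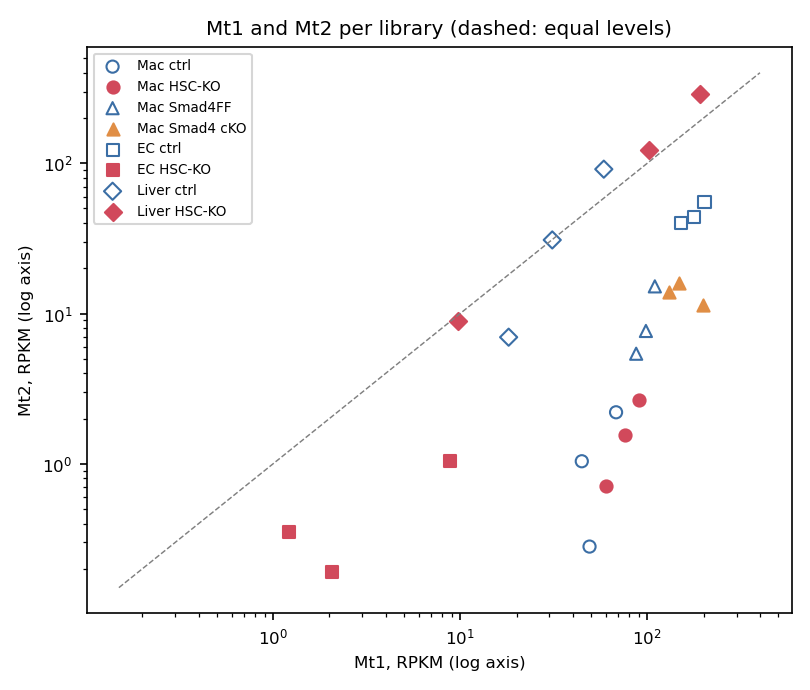
Mt1 against Mt2 in RPKM (both log axes) in the 24 libraries, with a dashed line at equal levels, whose place depends on the exon lengths used. Whole livers lie near the line, ECs below it at a ratio of 3.4 to 10.9 and macrophages below it at 7.2 to 174.6, ranges that overlap, and the mutant ECs sit at the low end of Mt1.

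The ratio of the neighbouring metallothionein genes is given as a description, without a test. The annotated exon union of Mt1, 1246 bases, covers its whole locus, and that of Mt2 is 588 bases. The ratios, and which gene is higher in liver, depend on these lengths. Per length, Mt1 RNA was 3.69 to 4.06 times that of Mt2 in control ECs and 0.64 to 2.61 times in whole livers. In the ligand experiment it was 30.9 to 174.6 times in control and 33.8 to 85.1 times in mutant macrophages, and in the Smad4 experiment 7.24 to 17.5 times over both groups. The ligand-experiment ratios rest on low Mt2 levels, with 14 to 110 counts in the controls, where hepatocyte RNA would supply 0.090 to 0.29 CPM of Mt2 and EC RNA 0.035 to 0.44 CPM of the 0.17 to 1.29 CPM measured. In mutant ECs, where both genes were low, the ratio was 8.40, 10.9 and 3.44. Over the 24 libraries, deviations of log2 CPM from the group means correlated between Mt1 and Mt2 at Pearson r = 0.85 (Spearman rho = 0.82), a description of the scatter among libraries of one group that shares depth and scaling. Without the 6 livers r was 0.58, so it rested largely on the livers, where mutant replicate 3 was low in both. Among 8481 genes whose mean log2 CPM reached 1 in all 8 groups, the 5 most like Mt1 by this measure were Tcn2 (r = 0.89), Tbc1d4 (0.88), Galk2 (0.85), Axl (0.85) and Cables1 (0.85). Without the livers Tcn2, which encodes the plasma carrier of cobalamin, stayed at 0.90, and Tbc1d4 at 0.63.

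The wider transporter families gave few further changes. Of 9 other SLC30-type genes, 6 were fitted in macrophages of the ligand mutant and 1 was called: Slc30a4, which loads zinc into vesicles, rose from 0.12 to 0.44 CPM in the controls to 2.46 to 4.77 CPM in the mutants, a log2 fold change of 3.74 (SE 0.55, adjusted p = 0.0033). Of all genes fitted there 11.7% were called. Of 11 other SLC39 genes, 10 were fitted and 0 called there, and in ECs 1 was called, Slc39a10, a plasma membrane zinc importer, at 14.3 to 19.5 CPM in the controls and 33.6 to 49.5 CPM in the mutants (log2 fold change 1.37, SE 0.20), beside 13.7% of all genes. None of the other SLC30 or SLC39 genes was called by edgeR with loss of Smad4 or in whole liver. The other metallothionein genes were hardly counted: Mt3 was at 0.15 CPM in one Smad4FF library and 0 in the other 23, and Mt4 was at 0 in all 24.

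**Figure D4:**
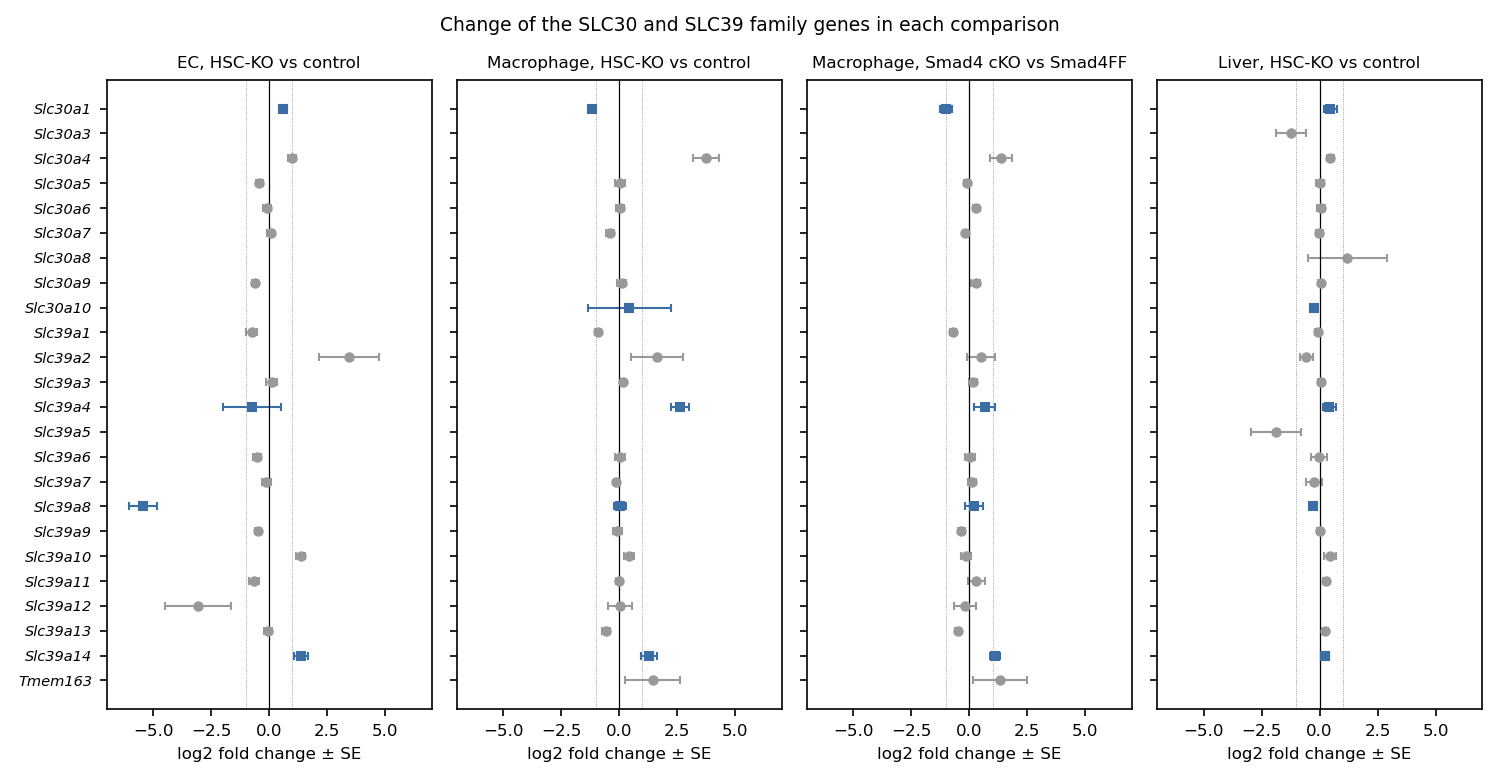
Log2 fold change with its standard error for every fitted gene of the SLC30 and SLC39 families in the 4 comparisons, with the 5 transporters of the set as blue squares and the others as grey circles. In ECs Slc39a8 lies at -5.42 and Slc39a10 at 1.37, and in ligand-mutant macrophages Slc30a4 lies at 3.74 and Slc39a4 at 2.62.

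Genes of related metal and stress pathways were examined beside the set. Of 15 genes of copper and manganese handling, Cp, which encodes the copper ferroxidase ceruloplasmin, was the only one called in macrophages, beside 11.7% of all genes with ligand loss and 5.43% with loss of Smad4. It rose from 14.4 to 18.3 CPM to 105 to 196 CPM with loss of the ligands (log2 fold change 3.09, SE 0.25, adjusted p = 0.00024) and from 12.6 to 14.7 CPM to 61.2 to 75.7 CPM with loss of Smad4 (2.34, SE 0.13, adjusted p = 0.00014). In ECs 1 of the 15 was called, the copper importer gene Slc31a1, lower at -1.33 (SE 0.30), where 6.01% of all genes were called lower. Of 11 measured genes of the NRF2 and heavy-metal stress list, some of which share inducers with the metallothioneins, 3 fell and 0 rose in ligand-mutant macrophages: Hmox1, the heme-degrading enzyme (-1.74, SE 0.22, adjusted p = 0.0016), Txnrd1, a thioredoxin reductase (-1.64, SE 0.26, adjusted p = 0.0042), and Slc40a1, the iron exporter (-1.57, SE 0.21, adjusted p = 0.0019). Of all genes 5.34% fell and 6.32% rose there. The list's median log2 fold change was -0.80 beside 0.04 over all genes. Summed erythroid markers were also lower in these mutant libraries, at 6.28 to 13.8 CPM against 35.9 to 61.3 in the controls, with all 5 markers called, and their part was not tested. With loss of Smad4, 0 of the 11 were called by edgeR, 7 had an unadjusted p below 0.05, and the median was -0.40 beside 0.04 over all genes. In ECs 1 of these 11 was called, beside 6.01% of all genes called lower and 7.68% higher: Slc40a1, from 122 to 175 CPM in the controls to 1.56 to 15.6 CPM in the mutants (-4.50, SE 0.85). In whole liver 1 of the 10 fitted was called, against 2.48% of all genes: Hmox1 fell (-1.58, SE 0.28, adjusted p = 0.030). Macrophage markers summed to 247 to 383 CPM in control livers and 85.2 to 179 in mutant livers, Kupffer markers to 227 to 403 and 0.60 to 2.27, and Hmox1 was at 939 to 1159 CPM in control macrophages against 17.0 to 23.8 in control livers, and their part in this fall was not tested.

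A list of 10 glucocorticoid-induced genes was counted as well, since glucocorticoids also induce metallothionein genes. In ECs 1 of the 10 was called, the kinase gene Sgk1, lower at -1.26 (SE 0.25), beside 13.7% of all genes, and the members ran from -1.26 to 2.43 with a median of 0.65, beside 0.00 over all genes. In ligand-mutant macrophages Sgk1 (-1.46, SE 0.16, adjusted p = 0.00096) and the phosphatase gene Dusp1 (-1.81, SE 0.46, adjusted p = 0.031) fell and none rose past the call rule, where 5.34% of all genes fell. The list's median there was 0.49 beside 0.04 over all genes, and its highest estimate, 4.02 for Zbtb16, had an SE of 1.37 (adjusted p = 0.081). With loss of Smad4, Sult1a1, a sulfotransferase gene, fell (-1.23, SE 0.24, adjusted p = 0.021), 1 of 10 beside 5.43% of all genes, and in whole liver 0 were called by edgeR. The lists were chosen with earlier results of these data known, and their counts and medians are a description only.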

How the data were processed

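Bulk RNA-seq libraries of sorted liver macrophages, sorted ECs and whole liver were sequenced on an Illumina NovaSeq. Per the labels and the submitters' processing notes, the authors checked reads with FastQC, aligned them to the mouse genome (mm10) with HISAT2 and counted them per gene with featureCounts. The deposited values are raw read counts, one table per experiment, and versions, strand and multi-mapping settings are not given in the sources used here. Columns of the EC table name the cells LSEC where the labels say ECs, and were matched by mouse and genotype code. The largest correlation between libraries was below 1 and no libraries held identical counts. Reads from a gene and its antisense partner may not be separable.

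Counts were filtered with filterByExpr (at least 10 counts), scaled by TMM and tested per comparison with edgeR 4.0.16 (glmQLFit and glmQLFTest, limma 3.58.1, R 4.3.3), with p-values adjusted by Benjamini-Hochberg over all genes fitted. Calls needed an adjusted p under 0.05 together with a log2 fold change beyond 1 in either direction. RPKM used the exon union of the GENCODE annotation on GRCm38. Promoter sequences and their starts came from RefSeq (GRCm38.p6). The procedure was tested on simulated data with known changes. Alternatives were DESeq2 1.42.0, other scaling, other count filters, leaving out each library, a replicate block, Xist as a covariate and a fit of the 12 macrophage libraries. Tables were drawn up with Python 3.11.15, pandas 2.3.3 and matplotlib 3.10.9.

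The 8 genes are named in every comparison. Genes of the other lists are named where called, at most 4 per list and comparison, and the 5 genes most like Mt1 by Pearson correlation of log2 CPM (prior count 2) are named. The 8 genes, the lists and the tests were chosen with earlier results of these data known.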

Additional observations from a re-analysis of the deposited data

Results flagged for a closer look

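Slc30a1 lay apart between the groups in opposite directions in the sorted cell types of the same mutant genotype. It was higher in all 3 mutant EC libraries than in any control EC library, with a log2 fold change of 0.59 (SE 0.17), and lower in all 3 mutant macrophage libraries than in any control macrophage library, at -1.18 (SE 0.14). The difference between the cell types was not tested, because the tables were normalised separately and the EC comparison was used to choose the set. With library size alone as scaling the EC value was 0.88, and without one library it was 0.40 to 0.71. Groups did not overlap for 40.4% of all genes fitted in ECs and for 40.3% in ligand-experiment macrophages, so separation was common in both.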

How the results depend on the processing

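By edgeR's test 2198 of all genes were called in ECs, and 1664 to 2496 when one library was left out. In macrophages with ligand loss the counts were 3 of the set (2 without any one library) and 1904 of all genes (1399 to 1985). With loss of Smad4 they were 1 of the set, 2 by DESeq2 and 2 with at least 10 counts in every library, 0 to 1 without one library, and 951 of all genes (566 to 909). For the difference between the experiments the counts were 0, 1 by DESeq2, 0 to 1 without one library, and 473 of all genes, 1030 by DESeq2 and 233 to 556 without one library. In liver they were 0, 1 with Xist as a covariate, 0 without any one library, and 425 of all genes, 794 by DESeq2 and 188 to 451 without one library. Of 457 alternative values of single genes outside ECs, 406 kept direction and side of the threshold, 17 lost a call and 7 gained one.

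Estimates near 0 changed sign, none of them called. Without one library the range was -0.056 to 1.32 for Mt2, -0.13 to 6.28 for Slc30a10 and -0.17 to 0.26 for Slc39a8 with ligand loss, -0.20 to 0.017 for Mtf1 and -0.15 to 0.62 for Slc39a8 with Smad4 loss, and -0.093 to 0.098 for Mtf1 and -0.014 to 0.64 for Slc39a4 in liver. For the difference between experiments it was -0.36 to 0.030 for Mt1, -0.62 to 0.80 for Mt2, -0.33 to 0.049 for Slc30a1, -0.61 to 0.16 for Slc39a8 and -0.10 to 0.43 for Slc39a14. With library size alone Mtf1 was 0.060 with Smad4 loss, and with Xist as a covariate Slc39a4 was -0.026 in liver, and Mt1 0.018 and Mt2 0.24 in the difference between experiments. The cause was not tested.

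Library size alone moved the median log2 fold change of all genes to 0.30 in ECs, 0.19 with Smad4 loss, 0.13 with ligand loss and -0.12 in liver. Slc39a14 was also not called with the replicate block (adjusted p = 0.083 with ligand loss and 0.097 with Smad4 loss by edgeR). Its ligand-loss call was also lost with Xist as a covariate (0.086), which was at 0, 0 and 21.1 CPM in control and 0, 75.5 and 87.2 CPM in mutant macrophages, and with every gene of at least 1 count (0.057), and its Smad4-loss call in the fit of 12 libraries (0.053). The replicate block left 2, 0, 0 and 0 called genes of the set in ligand-loss macrophages, Smad4-loss macrophages, the difference and liver, and 1599, 716, 299 and 271 of all genes, with 2054 of all genes in ECs. The replicate numbers did not establish pairs, since the correlation of same-numbered libraries ranged from -0.21 to 0.22. Slc30a10, with 0 to 21 counts in sorted cells, is limited by depth, and intervals beyond counting error rest on 3 libraries per group.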
